A study of Mus musculus with 8 samples.

Results

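The genes described here encode the exocytosis machinery, the proteins that dock, prime and fuse secretory granules and other vesicles with their target membranes. They were chosen by symbol alone (Syt, Sytl, Stx, Stxbp, Snap, Vamp, Rims, Cplx and Doc2 followed by a digit or a letter a to g, and Unc13), without the complexes named Snapc and the gene Snapin. Of 46955 table entries, 73 carried such a symbol, and 56 of these reached 0.5 RPKM (reads scaled by gene length and library size) in at least 2 of 8 libraries. All RNA came from adult mouse pancreatic islets. Transdifferentiated cells (2 libraries, 1 male and 1 female) carried both the red nuclear Ins1-H2b-mCherry reporter, which marks insulin-expressing cells, and a yellow fluorescent label switched on by Gcg-cre from a floxed YFP allele, which marks descent from alpha cells. Alpha cells (3 libraries, 2 male and 1 female) were sorted for the yellow label, and beta cells (3 libraries, 1 male and 2 female) for the red reporter. The design text describes triple transgenic animals, pooled by sex in groups of 10 to 12, and also mentions bitransgenic females. All islets were cultured overnight at 5.5 mM glucose before sorting, and the labels give no other treatment. Replicates 1 and 2 of the alpha cells, and likewise of the beta cells, share the leading number of their titles and may come from 1 pool, so each group could hold only 2 pools. The yellow label stays in a cell once Cre has acted, so it gives no time of the change, and each pool is an average over cells.

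Regulated exocytosis in islet cells ends with the pairing of a vesicle SNARE of the Vamp family with a syntaxin and a Snap25-type protein at the plasma membrane. Munc18 proteins (the Stxbp genes) hold and assemble syntaxin, Rims and Unc13 proteins prime the granule, complexins clamp the assembled complex, and calcium-binding synaptotagmins trigger fusion. Synaptotagmin-like proteins (the Sytl genes, or Slp) connect the small GTPase Rab27 on the granule to the plasma membrane, and Sytl4, known as granuphilin, is the docking factor of insulin granules.

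The transdifferentiated libraries were shallow. Whole reads recovered from the table summed to 1244123 and 2167149 in transdifferentiated cells, against 14336073 to 21393871 in beta cells and 12911008 to 14092712 in alpha cells. A single read of a 2 kb gene stood for 0.402 and 0.231 RPKM in transdifferentiated libraries, against 0.0234 to 0.0387 RPKM elsewhere. All 7 beta cell markers exceeded 1 RPKM in each transdifferentiated library and summed to 140000 to 147000 RPKM, against 186000 to 242000 RPKM in beta and 2490 to 3190 RPKM in alpha cells. All 6 alpha cell markers exceeded 1 RPKM there too, with sums of 20200 to 20300 RPKM in transdifferentiated cells, 620 to 1960 RPKM in beta cells and 176000 to 204000 RPKM in alpha cells. Sums of 4 delta cell markers were 2970 to 3100 RPKM in transdifferentiated, 312 to 891 RPKM in beta and 1370 to 3200 RPKM in alpha cells. Those of 3 PP and epsilon cell markers were 8250 to 11400 RPKM in transdifferentiated, 590 to 1270 RPKM in beta and 7960 to 13000 RPKM in alpha cells. Duct markers (5 genes) summed to 188 to 234 RPKM in transdifferentiated, 185 to 317 RPKM in beta and 672 to 1700 RPKM in alpha cells. Sums of 5 neural markers were 6.54 to 7.47 RPKM in transdifferentiated cells, with Sox10 and S100b at 0, 23.9 to 32.6 RPKM in beta cells and 3.36 to 9.6 RPKM in alpha cells. Most of each beta sum was Tubb3 (23.0 to 31.3 RPKM). Endothelial sums were at most 10.7 RPKM and stellate sums at most 1.85 RPKM in any library. Sums of 10 immune markers were 21.1 to 34.9 RPKM in transdifferentiated cells, with Ptprc at 0, 99.9 to 116 RPKM in beta cells and 10.2 to 27.7 RPKM in alpha cells. Acinar markers (8 genes) summed to 267 to 799 RPKM in transdifferentiated cells, with Amy2a5 and Ptf1a at 0, to 105 to 2920 RPKM in beta cells and to 35.7 to 2120 RPKM in alpha cells. The part of these other cell types in the results below was not tested, and in sorted bulk RNA fewer cells with a transcript and less transcript per cell cannot be told apart. Titles of some beta and alpha libraries share a number and differ by a letter b that no label explains, so the spread behind the p-values may be partly technical.

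Transdifferentiated cells held less of the docking and priming genes Sytl4 and Rims3 than beta cells, and far more of both than alpha cells. They held more Stx1a, Stx16, Sytl2 and Sytl5 than beta cells, and less of these 4 than alpha cells. A gene was called when its adjusted p was under 0.05 in a limma fit of log2(RPKM + 0.5) over 13172 genes, of which 52 were exocytosis genes. Between alpha and beta cells 35 of the 52 were called (67.3%, where 43.6% of all genes tested were called), with 13 genes higher (16.9% of all genes) and 22 lower (26.7%) in alpha cells. Among these, Syt12 (higher) passed the filter only through alpha libraries and Doc2b (lower) only through beta libraries. Against alpha cells, 19 were called in transdifferentiated cells (36.5%, where 29.9% of all genes were called), 14 higher (23.2%) and 5 lower (6.67%). Against beta cells, 12 were called (23.1%, where 12% of all genes were called), 9 higher (9.1%) and 3 lower (2.9%). With libraries that share a title number averaged as 1 sample, 4 were called against beta cells (Stx1a, Stx16, Sytl2 and Sytl4, where 3.51% of all genes were called), and Rims3 (adjusted p = 0.114) and Sytl5 (adjusted p = 0.083) were not. In that fit 14 were called against alpha cells (21% of all genes), where Stx16 (adjusted p = 0.0725) and Stx1a (adjusted p = 0.107) were not, and 25 between alpha and beta cells (31.7% of all genes). Those lost between alpha and beta cells were Cplx2, Snap29, Snap47, Stx5a, Stxbp2, Stxbp3, Syt3, Syt12, Vamp3 and Vamp4 (adjusted p = 0.0597 to 0.155). With each library as 1 sample, the 9 higher than in beta cells were Cplx2, Stx1a, Stx5a, Stx16, Stxbp2, Stxbp5l, Syt16, Sytl2 and Sytl5, and the lower ones included Sytl4 and Rims3. In all, 36 genes were called in at least 1 comparison, 8 in all 3 and 16 in none. No share over all genes stands beside these counts, so they only describe the module. The comparisons share libraries and are not independent of each other.

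These splits depended on the scaling and the counts on single libraries. With median-ratio scaling the split against beta cells became 6 higher and 9 lower, and with quantile normalization 7 higher and 4 lower. Of all genes, 12.5% were called with median-ratio scaling, 52.7% of them higher, and 8.68% with quantile normalization, 55.2% higher (75.8% in the main fit). Against alpha cells the split was 10 higher and 8 lower with median-ratio scaling, and 10 higher and 10 lower with quantile normalization. There 24.2% and 26.6% of all genes were called in the same order, 51.5% and 49.9% of them higher (77.6% in the main fit). Between alpha and beta cells the split was 15 higher and 13 lower with median-ratio scaling, and 14 higher and 13 lower with quantile normalization. Here 43.7% and 41.6% of all genes were called, with 50% of them higher under either scaling (38.8% in the main fit). The median log2 fold change of the exocytosis genes was 0.00 against beta cells (0.09 over all genes), 0.18 against alpha cells (0.17) and -0.25 between alpha and beta cells (-0.05). Median-ratio scaling moved the medians over all genes to -0.03 against beta cells, -0.04 against alpha cells and 0.04 between alpha and beta cells, shifts of -0.12, -0.21 and 0.08. The count against beta cells fell to 4 without beta replicate 1 and without beta replicate 3, to 6 without beta replicate 2, and to 7 without transdifferentiated replicate 1, alpha replicate 2 or alpha replicate 3. Over all genes the share called there fell to 3.82% without beta replicate 1, 1.78% without beta replicate 3 and 6.01% without beta replicate 2. It was 5.7% without transdifferentiated replicate 1, 6.5% without alpha replicate 2 and 7.27% without alpha replicate 3. Without alpha replicate 3 the count was 12 against alpha cells (18.5% of all genes) and 19 between alpha and beta cells (23.6% of all genes). Without beta replicate 3 it was 21 between alpha and beta cells (26% of all genes). The plot of fold changes by role shows that Sytl4, Sytl2 and Rims3 lie far from the other genes between alpha and beta cells.

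**Figure D1:**
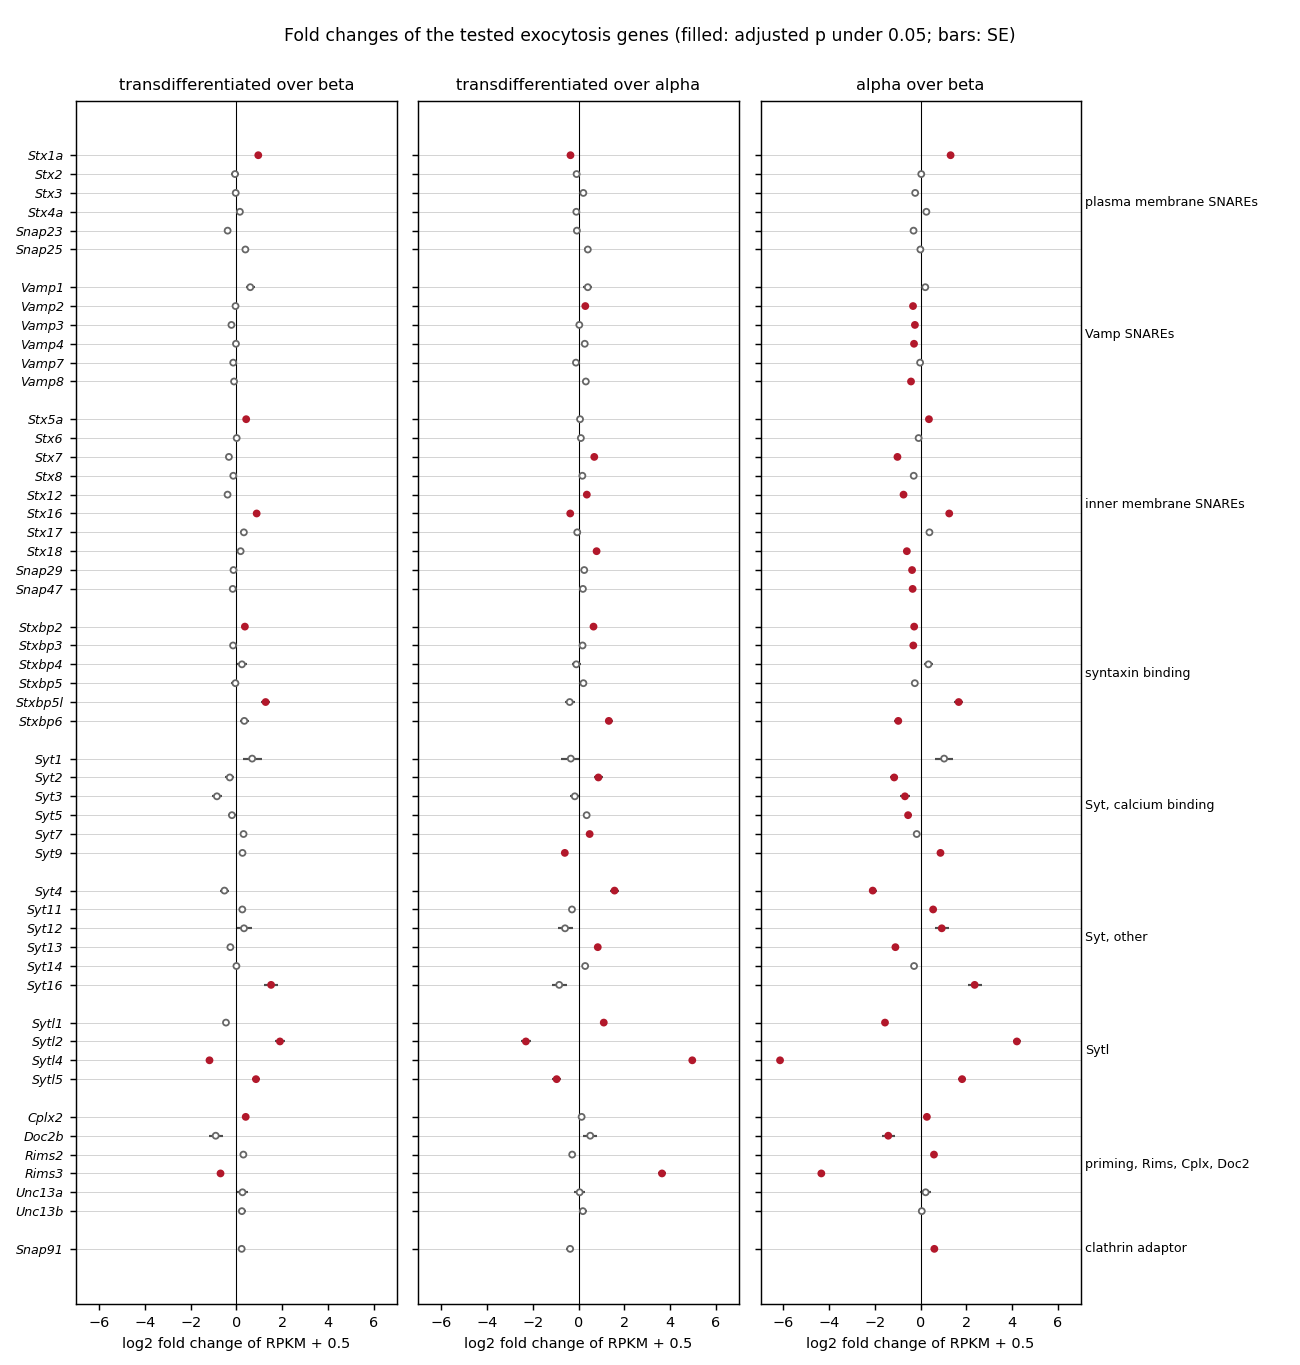
Log2 fold changes of RPKM + 0.5 (horizontal axes) for 51 of the 52 tested exocytosis genes, grouped by role, in 3 panels: transdifferentiated over beta, transdifferentiated over alpha and alpha over beta cells. Bars are standard errors, and filled points have an adjusted p under 0.05 in limma. In both panels with alpha cells the points farthest from 0 are Sytl4, Rims3 and Sytl2. In the panel of transdifferentiated over beta cells Sytl2 is farthest from 0.

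Levels differed widely within the module. Syt13 had the highest mean of the 56 genes in each group, at 285 RPKM in transdifferentiated, 344 RPKM in beta and 159 RPKM in alpha cells. Means of at least 10 RPKM were reached by 29 genes in transdifferentiated, 29 in beta and 28 in alpha cells, and means under 1 RPKM by 7 in transdifferentiated, 8 in beta and 8 in alpha cells. Summed RPKM of the 56 genes was 1417 and 1445 in transdifferentiated cells, 1637, 1556 and 1471 in beta cells and 1049, 1096 and 1124 in alpha cells. The transdifferentiated sums lay below every beta and above every alpha library, although as a share of all RPKM in the table (0.343% and 0.333%) they fell within the beta range (0.305% to 0.361%) and above the alpha range (0.238% to 0.284%). Replicates varied by a median SD of 0.13 on the log2 scale in transdifferentiated, 0.11 in beta and 0.14 in alpha cells over the 56 genes, against 0.18 in transdifferentiated, 0.14 in beta and 0.14 in alpha cells over all genes tested.

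Upstream windows of 4 genes with large differences are shown, since Sytl4 and Rims3 were low in alpha cells and Stx1a and Sytl5 low in beta cells. Each is the 250 bases before the gene's start in RefSeq, on GRCm38.p6 and the gene's own strand, read 5′ to 3′, and capitals mark matches to the motifs searched.
Sytl4 (chrX:133981813-133982062, minus strand): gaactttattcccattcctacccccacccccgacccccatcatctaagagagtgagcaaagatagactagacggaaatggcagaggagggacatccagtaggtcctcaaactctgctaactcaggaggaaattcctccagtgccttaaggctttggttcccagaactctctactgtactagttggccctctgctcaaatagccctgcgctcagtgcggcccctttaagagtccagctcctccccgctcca
Rims3 (chr4:120854549-120854798, plus strand): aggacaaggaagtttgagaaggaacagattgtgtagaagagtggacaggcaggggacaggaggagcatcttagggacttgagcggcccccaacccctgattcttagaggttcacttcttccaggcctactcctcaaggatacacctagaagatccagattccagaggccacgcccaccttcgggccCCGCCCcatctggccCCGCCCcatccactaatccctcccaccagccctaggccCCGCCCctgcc
Stx1a (chr5:135023232-135023481, plus strand): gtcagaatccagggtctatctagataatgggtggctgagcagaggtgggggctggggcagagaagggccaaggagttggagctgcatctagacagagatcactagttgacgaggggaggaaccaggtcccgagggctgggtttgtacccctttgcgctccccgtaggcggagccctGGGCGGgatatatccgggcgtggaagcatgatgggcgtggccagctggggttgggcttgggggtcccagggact
Sytl5 (chrX:9885371-9885620, plus strand): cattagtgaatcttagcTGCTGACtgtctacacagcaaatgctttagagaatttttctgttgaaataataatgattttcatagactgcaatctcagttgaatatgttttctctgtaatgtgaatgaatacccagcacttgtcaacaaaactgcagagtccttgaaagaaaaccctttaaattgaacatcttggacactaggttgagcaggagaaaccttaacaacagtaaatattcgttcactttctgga
Each motif was searched as exact letters on both strands, and no match overlaps another in the windows printed. RefSeq windows were at hand for 42 of 56 exocytosis genes, 49 windows in all. The windows over all genes were taken without regard to expression, while the exocytosis genes had to be expressed. The shares below therefore compare unlike sets and do not show a trait of exocytosis genes. The letters GGGCGG of the GC box stood 3 times before Rims3 and once before Stx1a, in 57.1% of the exocytosis windows and in 32.7% of 32851 windows over all genes. The Maf recognition core, searched as TGCTGAC, stood before Sytl5, in 2.04% of the exocytosis windows and in 3.81% of all. The TATA box, searched as TATAAA, stood in 4.08% of the exocytosis windows and 12.4% of all. A cAMP response element, searched as TGACGTCA, stood in 2.04% of the exocytosis windows and 1.55% of all. Of the RE1 element, the left piece TTCAGCACC stood in no exocytosis window and 0.301% of all windows. Its right piece, searched as GGACAGC, stood in 4.08% of the exocytosis windows and 5.28% of all. Sytl4 held none of these letters. Median GC content was 60% in exocytosis windows and 52.4% in all, and the ratio of observed to expected CpG was 0.656 in exocytosis windows and 0.373 in all. The windows of Sytl4 (0.299), Rims3 (0.278), Stx1a (0.42) and Sytl5 (0.129) had CpG ratios below the exocytosis median.

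The synaptotagmin-like genes held the largest fold change of the 52 in each comparison. Sytl4 (chromosome X, 133936385 to 133981812, minus strand; gene positions are those of GENCODE release M21 on GRCm38) had 39.4 and 47.8 RPKM in transdifferentiated cells, 108, 106 and 93.5 RPKM in beta cells and 0.589, 0.901 and 1.12 RPKM in alpha cells. The 3 groups did not overlap, and transdifferentiated cells lay between the others. Its upstream window held none of the motifs searched. Sytl4 was at 42.6% of the beta mean in transdifferentiated cells (log2 change -1.18 with SE 0.13, adjusted p = 0.0044). It was 50.1 times the alpha mean there (log2 change 4.97 with SE 0.13, adjusted p = 3.18e-06). Alpha cells held 0.851% of the beta level (log2 change -6.15 with SE 0.12, adjusted p = 5.03e-07). These calls were made in each of 18 alternatives, and the transdifferentiated values rested on 251 and 531 reads.

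Sytl5 and Sytl2 ran the other way. Sytl5 (chromosome X, 9885622 to 9994543, plus strand), a Rab27-binding family member, had 27.9 and 23.5 RPKM in transdifferentiated cells, 15.5, 18.3 and 10.6 RPKM in beta cells and 42.1, 47.5 and 57.2 RPKM in alpha cells. Its transdifferentiated libraries were above every beta and below every alpha library (log2 change 0.85 with SE 0.20, adjusted p = 0.0357 against beta, and log2 change -0.96 with SE 0.20, adjusted p = 0.0108 against alpha cells). The call against beta cells was missed in 9 of 18 alternatives, with adjusted p of 0.0194 to 0.134. Sytl2 (chromosome 7, 90302252 to 90410719, plus strand), which binds Rab27 and phospholipids of the plasma membrane, had 1.87 and 1.67 RPKM in transdifferentiated cells, 0.0545, 0.231 and 0.0709 RPKM in beta cells and 8.89, 11.3 and 11.7 RPKM in alpha cells. Beta cells were close to none, with 7, 34 and 7 reads, and the transdifferentiated values rested on 16 and 25 reads. In transdifferentiated cells Sytl2 was higher than in beta cells (log2 change 1.90 with SE 0.20, adjusted p = 0.0044). It was at 16.6% of the alpha mean (log2 change -2.30 with SE 0.20, adjusted p = 0.000353). Either call was made in each of 17 alternatives. Sytl1, another Rab27 effector, had 9.25 and 8.79 RPKM in transdifferentiated cells, 12.4, 12.2 and 13.3 RPKM in beta cells and 3.60, 3.67 and 4.54 RPKM in alpha cells. It was above alpha cells (log2 change 1.10 with SE 0.13, adjusted p = 0.00106), and lower in every transdifferentiated than in any beta library without passing the test (log2 change -0.46 with SE 0.13, adjusted p = 0.0573, missed in 13 of 17 alternatives).

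The make-up of the family differed by group. Sytl4 made up 49.8% and 58.0% of summed Sytl RPKM in transdifferentiated cells, 77.3% to 79.3% in beta cells and 1.06% to 1.5% in alpha cells. Sytl5 made up 35.4% and 28.5% in transdifferentiated cells, 8.97% to 13.4% in beta cells and 74.2% to 76.3% in alpha cells. Sytl2 added 2.36% and 2.03% in transdifferentiated cells, at most 0.169% in beta cells and 15.6% to 17.7% in alpha cells. No transdifferentiated share of these 3 genes fell within the range of either other group.

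**Figure D2:**
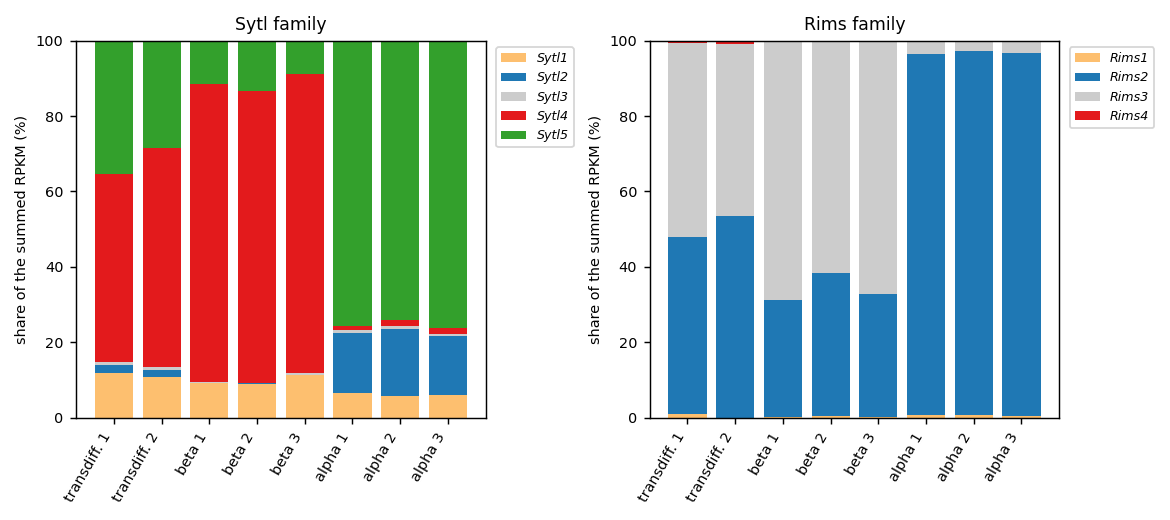
Share of summed RPKM (vertical axes, percent) held by each gene of the Sytl family (left) and the Rims family (right) in each library, with transdifferentiated libraries first. Sytl4 holds 49.8% and 58.0% in transdifferentiated cells, against 77.3% to 79.3% in beta cells and 1.06% to 1.5% in alpha cells, and Rims3 holds 51.5% and 45.5% in transdifferentiated cells.

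**Figure D3:**
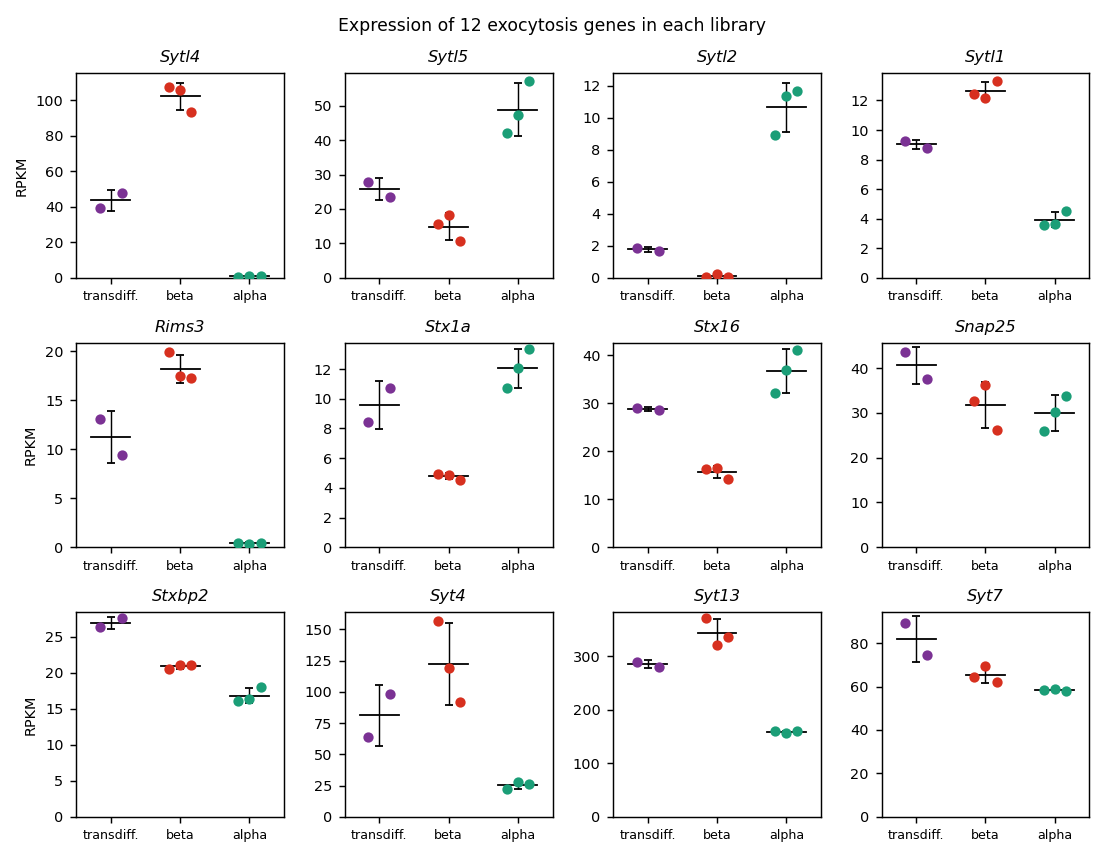
RPKM (vertical axes, linear from 0) of 12 exocytosis genes in each library, with points for libraries, lines for group means and bars for SD (n = 2 transdifferentiated, 3 beta, 3 alpha). Sytl4 and Rims3 lie near 0 in alpha cells, Sytl2 near 0 in beta cells, and Stxbp2 is highest in transdifferentiated cells.

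Among priming genes, Rims3 showed the same order of groups as Sytl4. Rims3 (chromosome 4, 120854816 to 120896579, plus strand), a short RIM protein that lacks the Rab3-binding part of the longer ones, had 13.1 and 9.37 RPKM in transdifferentiated cells, 19.9, 17.5 and 17.3 RPKM in beta cells and 0.457, 0.355 and 0.480 RPKM in alpha cells. The groups did not overlap, and transdifferentiated cells were 26.1 times the alpha mean (log2 change 3.65 with SE 0.17, adjusted p = 3.13e-05). Against beta cells Rims3 was at 61.7% (log2 change -0.70 with SE 0.17, adjusted p = 0.0417), a call missed in 10 of 17 alternatives. Rims2, the long RIM of islet cells, had 11.9 and 11.1 RPKM in transdifferentiated cells, 8.95, 10.8 and 8.39 RPKM in beta cells and 12.4, 14.6 and 14.8 RPKM in alpha cells. It was higher in alpha than in beta cells (log2 change 0.58 with SE 0.12, adjusted p = 0.00853), and transdifferentiated cells were not called against either (log2 change 0.30 with SE 0.13, adjusted p = 0.169 against beta cells). Rims3 made up 51.5% and 45.5% of Rims RPKM in transdifferentiated cells, 61.3% to 68.6% in beta and 2.35% to 3.53% in alpha cells, nearly all of the rest being Rims2.

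Cplx2, which encodes complexin 2, held at least 99.3% of complexin RPKM in every library. It had 150.5 and 142 RPKM in transdifferentiated cells, 111, 112 and 107 RPKM in beta cells and 136, 129 and 134 RPKM in alpha cells. Both transdifferentiated libraries were above every other library. The difference passed the test against beta cells (log2 change 0.41 with SE 0.08, adjusted p = 0.0258, missed in 7 of 18 alternatives). It did not pass against alpha cells (log2 change 0.13 with SE 0.08, adjusted p = 0.257). Alpha cells were also above beta cells (log2 change 0.27 with SE 0.08, adjusted p = 0.0246, missed in 5 of 18). Unc13a, the main Munc13 priming gene here at 17.5 and 24.0 RPKM in transdifferentiated cells, 16.7 to 19.2 RPKM in beta and 12.9 to 24.7 RPKM in alpha cells, overlapped between all groups, as did its share of Unc13 RPKM (71.5% to 81.3% over all libraries). Unc13b was at 6.19 and 5.84 RPKM in transdifferentiated cells, 4.72 to 5.73 RPKM in beta and 4.05 to 6.05 RPKM in alpha cells and was not called. Doc2b, a calcium sensor that binds Munc13, was lower in alpha than in beta cells (log2 change -1.42 with SE 0.29, adjusted p = 0.00707), but passed the filter only through beta libraries and rested on 3 and 4 reads in transdifferentiated cells.

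Of 6 plasma membrane SNAREs tested, Stx1a alone was called, in each comparison. Over all genes 12% were called against beta cells, 29.9% against alpha cells and 43.6% between alpha and beta cells. Stx1a (chromosome 5, 135023482 to 135051100, plus strand), the neuronal-type syntaxin used in insulin secretion, had 8.44 and 10.7 RPKM in transdifferentiated cells, 4.95, 4.89 and 4.55 RPKM in beta cells and 10.7, 12.0 and 13.3 RPKM in alpha cells. The 3 ranges did not overlap, although transdifferentiated replicate 2, at 10.73 RPKM, nearly met the lowest alpha library, at 10.75 RPKM. Stx1a was higher in transdifferentiated than in beta cells (log2 change 0.95 with SE 0.11, adjusted p = 0.00501), in each of 17 alternatives. It was lower than in alpha cells (log2 change -0.35 with SE 0.11, adjusted p = 0.0445), a call missed in 11 of 17. Alpha cells had 2.51 times the beta mean (log2 change 1.31 with SE 0.10, adjusted p = 8.79e-05). Snap25, its partner on the plasma membrane, had 43.5 and 37.7 RPKM in transdifferentiated cells, 32.7, 36.3 and 26.2 RPKM in beta cells and 25.9, 30.3 and 33.8 RPKM in alpha cells. Both transdifferentiated libraries were above all others, but the difference did not pass against beta cells (log2 change 0.39 with SE 0.15, adjusted p = 0.126) or alpha cells (log2 change 0.40 with SE 0.15, adjusted p = 0.0828), and alpha and beta libraries overlapped (log2 change -0.01 with SE 0.14, adjusted p = 0.947). Snap23, Stx2, Stx3 and Stx4a, the other target SNAREs of the plasma membrane, were not called in any comparison, with group means of 2.65 to 23.2 RPKM.

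Of 6 Vamp genes, none was called against beta cells by limma. Over all genes 12% were called there, and none of so few genes is near that share. Voom in limma also called none (5.84% of all genes), and 2 reached an unadjusted p under 0.05 in the main limma fit. Vamp2, the main SNARE of dense-core granules, had 57.8 and 58.0 RPKM in transdifferentiated cells, 58.1, 57.5 and 62.2 RPKM in beta cells and 48.1, 47.0 and 46.9 RPKM in alpha cells. It overlapped with beta cells and was above alpha cells (log2 change 0.29 with SE 0.08, adjusted p = 0.0258), a call missed in 11 of 18 alternatives and turned round with quantile normalization (-0.02, adjusted p = 0.861). Between alpha and beta cells Vamp2, Vamp3, Vamp4 and Vamp8 were all lower in alpha cells, by 0.25 to 0.42 on the log2 scale. For Vamp2 and Vamp3 that direction flipped to 0.06 for each with quantile normalization. Of 18 alternatives, 4 missed the call for Vamp2, 9 for Vamp3, 7 for Vamp4 and 4 for Vamp8. With libraries of the same title number averaged, Vamp3 (adjusted p = 0.15) and Vamp4 (adjusted p = 0.0985) were not called by limma. Vamp3, a SNARE of recycling endosomes, had 27.8 and 24.9 RPKM in transdifferentiated cells, 29.9, 32.0 and 30.2 RPKM in beta cells and 24.5, 26.3 and 26.5 RPKM in alpha cells. Vamp4 of the trans-Golgi network had 17.6 and 17.3 RPKM in transdifferentiated cells, 16.6, 18.2 and 18.4 RPKM in beta cells and 14.2, 13.9 and 15.1 RPKM in alpha cells. Vamp8, known for endosomes and for exocrine granules, had 32.0 and 35.5 RPKM in transdifferentiated cells, 34.2, 33.4 and 40.3 RPKM in beta cells and 29.6, 27.0 and 25.4 RPKM in alpha cells. Vamp8 was above every alpha library in transdifferentiated cells without passing the test (log2 change 0.32 with SE 0.11, adjusted p = 0.0674). Vamp2 held 35.7% and 35.1% of Vamp RPKM in transdifferentiated cells, 32.0% to 35.8% in beta and 32.1% to 33.9% in alpha cells. Vamp7, a SNARE of late endosomes, and Vamp1, close kin of Vamp2, were called in no comparison.

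Stxbp2 was the single exocytosis gene called above both beta and alpha cells (1 of 52, where 2.39% of all genes were called above both and 0.554% below both). Stxbp2 encodes Munc18-2, known for granule release in blood and epithelial cells. It had 26.3 and 27.5 RPKM in transdifferentiated cells, 20.5, 21.0 and 21.1 RPKM in beta cells and 16.1, 16.3 and 18 RPKM in alpha cells. Each transdifferentiated library was above every other. The difference was 0.37 against beta cells (SE 0.08, limma adjusted p = 0.0362), missed in 10 of 18 alternatives and with libraries of the same title number averaged (adjusted p = 0.111), and 0.65 against alpha cells (SE 0.08, adjusted p = 0.00179), missed in none. Stxbp3, or Munc18-3, partner of Stx4a, had 7.22 and 8.21 RPKM in transdifferentiated cells, 9.20, 9.23 and 7.93 RPKM in beta cells and 5.84, 6.97 and 7.11 RPKM in alpha cells. It was lower in alpha than in beta cells (log2 change -0.32 with SE 0.10, adjusted p = 0.037), a call missed in 8 of 17 alternatives. A pseudogene copy, Stxbp3-ps, could share its reads.

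Stxbp6, or amisyn, which competes with Vamp2 for syntaxin, had 9.60 and 6.27 RPKM in transdifferentiated cells, 5.02, 6.48 and 6.26 RPKM in beta cells and 2.63, 3.01 and 3.0 RPKM in alpha cells. It was above alpha cells in each of 17 alternatives (log2 change 1.32 with SE 0.18, adjusted p = 0.00241) and overlapped with beta cells. Stxbp5l, a tomosyn that inhibits SNARE assembly, averaged 3.90 ± 0.617 RPKM in transdifferentiated cells, 1.38 ± 0.439 RPKM in beta cells and 5.14 ± 0.534 RPKM in alpha cells (SD, n = 2, 3 and 3). In transdifferentiated cells, on 46 and 64 reads, it was above beta cells (log2 change 1.28 with SE 0.21, adjusted p = 0.016, missed in 3 of 17 alternatives). It was not called against alpha cells (log2 change -0.39 with SE 0.21, adjusted p = 0.208). Stxbp4 and Stxbp5 were called in no comparison, with group means of 1.49 to 2.05 and 6.01 to 7.22 RPKM.

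Of 6 calcium-binding synaptotagmins tested, none was called against beta cells by limma. Over all genes 12% were called there, and none of so few genes is near that share. Voom in limma also called none (5.84% of all genes), and 2 reached an unadjusted p under 0.05 in the main limma fit. Syt7, the high-affinity calcium sensor of islet granules, had 89.4 and 74.4 RPKM in transdifferentiated cells, 64.6, 69.7 and 62.1 RPKM in beta cells and 58.5, 58.8 and 58.0 RPKM in alpha cells. Transdifferentiated libraries were above all others. The test passed against alpha cells (log2 change 0.48 with SE 0.10, adjusted p = 0.0129), with 4 of 18 alternatives missing it, and not against beta cells (log2 change 0.31 with SE 0.10, adjusted p = 0.0912). Alpha and beta cells were not called against each other (log2 change -0.17 with SE 0.10, adjusted p = 0.179). Syt5, a synaptotagmin of dense-core granules, had 49.6 and 63.4 RPKM in transdifferentiated cells, 78.7, 61.6 and 57.5 RPKM in beta cells and 48.7, 41.7 and 39.5 RPKM in alpha cells. It overlapped between transdifferentiated and beta cells, and was lower in alpha than in beta cells (log2 change -0.55 with SE 0.15, adjusted p = 0.0253, missed in 7 of 18 alternatives). Syt9, a calcium sensor also described on dense-core granules, had 8.08 and 6.96 RPKM in transdifferentiated cells, 6.17, 6.35 and 5.82 RPKM in beta cells and 13.2, 11 and 11.1 RPKM in alpha cells. It was low beside alpha cells (log2 change -0.60 with SE 0.12, adjusted p = 0.0111) and just above beta cells without passing (log2 change 0.26 with SE 0.12, adjusted p = 0.192).

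Syt2, Syt3 and Syt1 were scarce. Syt2 averaged 2.34 ± 0.189 RPKM in transdifferentiated cells, 3.02 ± 0.203 RPKM in beta cells and 1.06 ± 0.256 RPKM in alpha cells (SD, n = 2, 3 and 3), and was above alpha cells (log2 change 0.87 with SE 0.19, adjusted p = 0.0152). Syt3 averaged 2.01 ± 1.17 RPKM in transdifferentiated cells, 3.61 ± 0.261 RPKM in beta cells and 2.27 ± 0.179 RPKM in alpha cells (SD, n = 2, 3 and 3), with 11 and 8 reads in transdifferentiated cells. It was lower in alpha than in beta cells (log2 change -0.69 with SE 0.21, adjusted p = 0.0331), a call missed in 9 of 17 alternatives. In transdifferentiated cells Syt3 was not called against either group. Both transdifferentiated libraries were below every beta library, and the test against beta cells was narrowly missed (log2 change -0.85 with SE 0.23, adjusted p = 0.0517). That comparison was called in 3 of 17 alternatives. Syt1, the main sensor of neurons, was at 1.16 and 0.221 RPKM in transdifferentiated cells, on 12 and 4 reads, at 0.109 to 0.252 RPKM in beta and 0.589 to 1.16 RPKM in alpha cells, and was not called.

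Synaptotagmins that do not bind calcium in the usual way included Syt13, the most abundant gene of the module. Syt13 (chromosome 2, 92915098 to 92956058, plus strand), known for its part in endocrine cell formation, had 290.3 and 279.9 RPKM in transdifferentiated cells, 372, 322 and 337 RPKM in beta cells and 160.3, 157 and 159.8 RPKM in alpha cells. Transdifferentiated libraries were below every beta and above every alpha library. The difference passed against alpha cells (log2 change 0.84 with SE 0.10, adjusted p = 0.00108) in each of 18 alternatives, and not against beta cells (log2 change -0.27 with SE 0.10, adjusted p = 0.113). Syt4, a modulator of the calcium sensitivity of mature beta cell granules, had 64.1 and 98 RPKM in transdifferentiated cells, 157, 119 and 91.8 RPKM in beta cells and 22, 27.9 and 25.9 RPKM in alpha cells. Its transdifferentiated and beta ranges overlapped (log2 change -0.52 with SE 0.19, adjusted p = 0.109), and it was 3.21 times the alpha mean (log2 change 1.57 with SE 0.19, adjusted p = 0.00127). Exons of Syt4 share 14.5% of their length with a gene on the opposite strand, and the library kit does not mark strand. Syt11, an inhibitor of vesicle retrieval in neurons, had 19.9 and 19.8 RPKM in transdifferentiated cells, 15.2, 16.4 and 17.6 RPKM in beta cells and 22.9, 26.4 and 24.3 RPKM in alpha cells. It was higher in alpha than in beta cells (log2 change 0.54 with SE 0.09, adjusted p = 0.00338), and its transdifferentiated libraries fell between the 2 groups without passing either test. Syt16 averaged 2.21 ± 1.45 RPKM in transdifferentiated cells, 0.411 ± 0.0336 RPKM in beta cells and 3.92 ± 0.905 RPKM in alpha cells (SD, n = 2, 3 and 3). It was called above beta cells (log2 change 1.51 with SE 0.32, adjusted p = 0.0297), on 4 and 19 reads, and 8 of 17 alternatives missed that call. Syt12 passed the filter only through alpha libraries, and Syt14 was called in no comparison.

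SNAREs of inner membranes, which act in transport before granule fusion or beside it, gave calls in each comparison. Of 10 tested, 2 were called against beta cells (12% of all genes) and 4 against alpha cells (29.9% of all genes). Between alpha and beta cells 7 were called (43.6% of all genes). Stx16 of the trans-Golgi network (chromosome 2, 174076308 to 174099771, plus strand) had 29.0 and 28.5 RPKM in transdifferentiated cells, 16.3, 16.5 and 14.3 RPKM in beta cells and 32.1, 36.8 and 41.1 RPKM in alpha cells. Transdifferentiated cells were above beta cells in each of 18 alternatives (log2 change 0.88 with SE 0.10, adjusted p = 0.00573). They were below alpha cells (log2 change -0.36 with SE 0.10, adjusted p = 0.0366), with 10 of 18 missing that call. Stx5a, a SNARE of the Golgi, had 17.3 and 19.6 RPKM in transdifferentiated cells, 13.1, 14.4 and 13.9 RPKM in beta cells and 17.1, 16.1 and 19.0 RPKM in alpha cells. Its call above beta cells (log2 change 0.43 with SE 0.10, adjusted p = 0.038) was missed in 13 of 18 alternatives. Stx7 of late endosomes had 63.3 and 57.9 RPKM in transdifferentiated cells, 70.5, 80.3 and 77.4 RPKM in beta cells and 34.0, 40.3 and 38.6 RPKM in alpha cells. It was above alpha cells (log2 change 0.69 with SE 0.11, adjusted p = 0.00409) and, without passing, below every beta library (log2 change -0.33 with SE 0.11, adjusted p = 0.0901). Stx12, also endosomal, had 31.3 and 32.8 RPKM in transdifferentiated cells, 46.8, 43.9 and 38.4 RPKM in beta cells and 21.0, 26 and 26.4 RPKM in alpha cells. It was likewise above alpha cells (log2 change 0.36 with SE 0.11, adjusted p = 0.0461), missed in 12 of 18 alternatives. Stx18 of the endoplasmic reticulum had 9.80 and 10.4 RPKM in transdifferentiated cells, 9.48, 8.5 and 8.91 RPKM in beta cells and 4.84, 5.87 and 6.12 RPKM in alpha cells, which put transdifferentiated libraries above every other. It was called against alpha cells (log2 change 0.79 with SE 0.12, adjusted p = 0.00357) and not against beta cells (log2 change 0.18 with SE 0.12, adjusted p = 0.34), and 32.3% of its exon length overlaps genes on the opposite strand.

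Snap29 and Snap47, soluble relatives of Snap25 that work on inner membranes, were lower in alpha cells than in beta cells. Snap29 had 13.6 and 14.4 RPKM in transdifferentiated cells, 15.7, 13.9 and 15.9 RPKM in beta cells and 12.2, 12.7 and 10.7 RPKM in alpha cells (log2 change -0.38 with SE 0.10, adjusted p = 0.02 between alpha and beta cells). Snap47, of whose exon length 11.6% overlaps a gene on the opposite strand, had 32.4 and 39.2 RPKM in transdifferentiated cells, 41.6, 37.5 and 41.4 RPKM in beta cells and 32.2, 30.3 and 30.7 RPKM in alpha cells (log2 change -0.35 with SE 0.10, adjusted p = 0.0257 between alpha and beta cells). Between alpha and beta cells the call was missed in 5 of 18 alternatives for Snap29 and 6 of 18 for Snap47. With libraries of the same title number averaged, neither was called there by limma (adjusted p = 0.0597 for Snap29 and 0.0667 for Snap47). Neither gene was called in transdifferentiated cells. Stx6, Stx8 and Stx17 were called in no comparison, with group means of 3.52 to 6.99 RPKM. Snap91, which the symbol brought in, encodes a clathrin assembly protein of endocytosis and not a SNARE. It had 3.79 and 4.80 RPKM in transdifferentiated cells, 4.63, 3.39 and 3.19 RPKM in beta cells and 4.67, 5.77 and 6.07 RPKM in alpha cells, higher in alpha than in beta cells (log2 change 0.60 with SE 0.15, adjusted p = 0.0163).

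Transdifferentiated cells lay between beta and alpha cells for most genes that separate the 2. Each gene called between alpha and beta cells was placed on a scale of RPKM means from 0% (beta) to 100% (alpha). These include Syt12 and Doc2b, which passed the filter only through the group where they are high. For the 13 genes higher in alpha cells the median position was 46.7%, from 15.7% for Sytl2 to 158% for Cplx2, where 2229 genes of the whole table had a median of 50.8%. For the 22 genes lower in alpha cells it was 40.9%, from -149% for Stxbp2 to 120% for Syt3, where 3514 genes had 26.9%. Between the means lay 11 of the 13 (84.6%, against 71% over all genes called higher) and 18 of the 22 (81.8%, against 70.2% over all genes called lower). Sytl4 stood at 57.9%, Rims3 at 39.2%, Stx1a at 66.1%, Stx16 at 62.3% and Syt13 at 31.6%. The place depended on the scale, since on log2(RPKM + 0.5) Sytl4 stood at 19.6%, Rims3 at 15.9%, Sytl2 at 45.2%, Stx1a at 74.3%, Stx16 at 71.7% and Syt13 at 24.0%. The median positions on that log2 scale were 52.3% for the 13 genes (60.2% over all genes) and 28% for the 22 (20.3% over all genes). Stxbp2, Stxbp6 and Stx18 lay beyond beta cells, and Cplx2, Stx5a and Syt3 beyond alpha cells. These positions are of RPKM as deposited and were not computed with other scaling. The log2 changes of Cplx2 (0.13) and Stx5a (0.06) against alpha cells were small. Median-ratio scaling moved the median over all genes there by more, -0.21, so their place beyond alpha cells may depend on scaling. The 2 transdifferentiated libraries lay far apart for Syt3 (58.1% and 181%) and Stxbp6 (-121% and -11.5%).

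**Figure D4:**
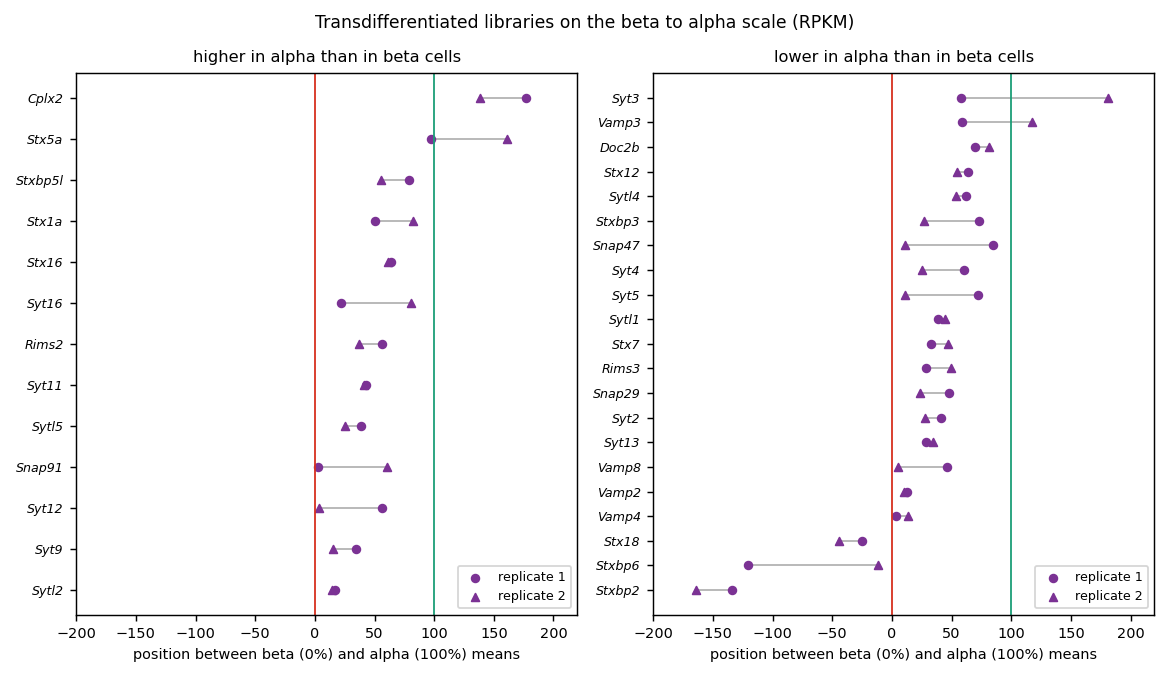
Position of each transdifferentiated library (circle replicate 1, triangle replicate 2) on the scale of RPKM from the beta mean (0%) to the alpha mean (100%), for the 13 genes called higher (left) and 21 of the 22 called lower (right) in alpha than in beta cells. Most points lie between the vertical lines, with Cplx2 beyond the alpha mean and Stxbp2, Stxbp6 and Stx18 beyond the beta mean.

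In both transdifferentiated libraries Cplx2, Snap25, Stx18, Stxbp2, Syt7 and Vamp1 exceeded every beta and alpha library (6 of 52, where 13.1% of all genes did), and no exocytosis gene fell below all of them (2.43% of all genes did). Vamp1 stood at 3.95 and 3.81 RPKM in transdifferentiated cells, 2.18 to 2.94 RPKM in beta and 2.14 to 3.22 RPKM in alpha cells, and was not called (log2 change 0.60 with SE 0.19, adjusted p = 0.0823 against beta cells).

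Other genes of the pathway, such as Rab3 and Rab27 GTPases, their effectors, active zone and granule proteins, were listed beside the module, and 59 of 65 were tested. Against beta cells 10 were called (16.9%, where 12% of all genes were called), 6 higher (9.1% of all genes) and 4 lower (2.9%). Against alpha cells 29 were called (49.2%, where 29.9% of all genes were called), 24 higher (23.2% of all genes) and 5 lower (6.67%). Of all genes called there, 77.6% were higher. Between alpha and beta cells 34 were called (57.6%, where 43.6% of all genes were called). Of these, 8 were higher (16.9% of all genes) and 26 lower (26.7%) in alpha cells. Among the 8, Rab27b, Ppfia2 and Rab3il1 passed the filter only through alpha libraries. Rab27b and Rab3il1 were also among the 5 lower than in alpha cells, so these calls are a description. Rab3c, a granule GTPase, was above beta cells by 2.0 in transdifferentiated cells (limma adjusted p = 0.00541). So were the granule membrane protein gene Sv2b (1.27, adjusted p = 0.0128) and Rimbp2 (0.92, adjusted p = 0.0265), whose product links RIM to calcium channels. Mlph, encoding the Rab27 effector melanophilin, was below beta cells (-0.92, adjusted p = 0.0291). Against alpha cells Mlph (2.52, adjusted p = 0.000226), Pclo, the active zone scaffold piccolo (2.29, adjusted p = 0.000545), and Rab3b (1.97, adjusted p = 8.44e-05) were higher. Rab3il1, a Rab3 exchange factor gene, passed the filter only through alpha libraries, at up to 0.406 RPKM in transdifferentiated, 0.353 RPKM in beta and 2.06 RPKM in alpha cells, so its differences from alpha cells are a description. Between alpha and beta cells the called changes farthest from 0, Rab3il1 aside, were those of Mlph (-3.44), Rab3c (3.38) and Pclo (-2.03).

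Low members set the edge of the module. Doc2g, Stx11 and Sytl3 were among those that passed the minimum of 0.5 RPKM in 2 libraries but not the filter of the test, with highest values of 0.762 RPKM for Doc2g, 0.870 RPKM for Stx11 and 0.639 RPKM for Sytl3. Of Doc2g exons, 63.5% overlap another gene on the same strand. Just outside, Unc13d, Cplx3 and Syt17 reached the minimum in 1 library each, at 0.687, 0.587 and 1.16 RPKM. The other 14 of 17 genes below the minimum were Cplx1, Doc2a, Rims1, Rims4, Stx19, Stxbp3-ps, Syt6, Syt8, Syt10, Syt15, Unc13c and Vamp5, and Cplx4 and Vamp7-ps, which were listed at 0 in every library.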

How the data were processed

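RNA from cells sorted out of pooled mouse islets was sequenced after TruSeq RNA v2 preparation, which does not mark strand, per the labels' protocols. The deposited table gives each gene's RPKM, which the authors computed. Tools named in the submitters' processing notes are STAR 2.5, featureCounts and edgeR 3.14.0, with the build GRCm38.p4. Neither annotation nor strand setting is stated.

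All 8 columns were used. Of 46959 entries, 4 with repeated names were left out and 27 carried names turned into dates. Whole reads were recovered from steps in the deposited RPKM: with GENCODE M21 exon lengths 78.5% of 25349 matched genes came out whole within 0.01 of a read, a length was solved for 5780 more, and the recovered reads matched the implied library sizes within a ratio of 1.0003. Where a length was solved (Sytl2 and Syt16 among them) it was the smallest that gave whole reads, so those read counts could be too low by a whole factor. The reads served for depth and for limma voom, where 9, 13 and 40 exocytosis genes were called (transdifferentiated against beta, transdifferentiated against alpha, alpha against beta). In the same order, voom called 5.84%, 19.4% and 52.6% of all genes.

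The main test was limma 3.58.1 (R 4.3.3; lmFit, eBayes with a trend, two-sided) on log2(RPKM + 0.5), fitted to the 8 libraries together, with terms for cell group and for sex, over 13172 genes with at least 1 RPKM in at least 2 libraries. Calls had a Benjamini-Hochberg adjusted p under 0.05 over all of these. Every library weighs the same in it, the shallow ones included, and fold changes of low genes are understated. SE is a standard error, SD a standard deviation over libraries. There were 18 alternative settings, 8 of them leaving out a library, and 1 more added after seeing the data, which averaged the log2 values of libraries with the same leading number in their titles (6 samples). Values in every library are given for Sytl4, Syt7, Snap25 and the 30 called members with the highest group mean, and pathway genes by the largest called change. A few members, some of these among them, are counted in the totals but not reported here by name. The rest of the members are given by ranges, means or counts, and any given in more detail were chosen after their values were seen. The members and lists were chosen with earlier results of these data known. Promoter windows came from RefSeq. The fit was tested on simulated data, where it recovered the fold changes put in but also called some unchanged genes between transdifferentiated and beta cells, so calls there that limma voom or another alternative misses are less firm.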

Additional observations from a re-analysis of the deposited data

How the results depend on the processing

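Depth limits low genes in transdifferentiated cells, where Syt16 and Syt3 rested on fewer than 20 reads a library. The calls of Sytl4 and Sytl2 in all 3 comparisons, of Stx16 and Stx1a against beta cells, and of Rims3, Stx7, Stx18, Stxbp2, Stxbp6, Syt4, Syt13 and Sytl1 against alpha cells were made in every alternative run for them. Of the values of the 30 named genes across the alternatives, 472 kept direction and call in transdifferentiated against beta cells (49 lost the call and 10 gained it), 470 in transdifferentiated against alpha cells (50 lost it, 10 gained it and 1 reversed) and 464 in alpha against beta cells (65 lost it and 2 reversed). The reversed values were all under quantile normalization: Vamp2 (-0.0222) against alpha cells, and Vamp2 (0.063) and Vamp3 (0.0602) between alpha and beta cells. Counts of called members moved furthest as follows. Against beta cells 7 were called without a filter (3.27% of all genes). When only genes averaging 10 RPKM or more were kept, and fewer genes were tested, 7 were called (9.99% of all genes tested). That filter left 12 against alpha cells (41.2%) and 22 between alpha and beta cells (56.4%). Leaving out a library gave 4 to 9 against beta cells (1.78% to 13.2% of all genes) and 12 to 17 against alpha cells (18.5% to 29%). Between alpha and beta cells it gave 19 to 40 (23.6% to 50.4%). With libraries that share a title number averaged as 1 sample, an alternative chosen after seeing the data, 4 were called against beta cells, 14 against alpha cells and 25 between alpha and beta cells, each of them also called with 8 libraries. The cause of these shifts was not tested. No paired analysis was possible because the labels give no replicate number that the groups share, and the numbers here follow accession order. Sex, which the groups do share, is a term of the fit, and without it 13, 18 and 37 were called against beta cells, against alpha cells and between alpha and beta cells. Over all genes 14.5%, 31.2% and 45.4% were called without the sex term, in that order.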
